A study of Homo sapiens with 12 samples.

Results

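The transcripts of 10 genes of fatty acid synthesis and desaturation were followed across K562 leukemia cells, their imatinib-resistant derivative, and both lines under lycorine. The genes were taken by symbol, ACLY, ACSS2, ME1, ACACA, FASN, ELOVL6, ELOVL5, SCD, FADS1 and FADS2, and all 10 were among the 19447 symbols of the count table. K562 is a human erythroleukemia line from chronic myeloid leukemia that carries BCR-ABL, the kinase that imatinib (IM) inhibits. The study raised K562/IM, 1 resistant line, by stepping up the imatinib in the medium and kept it in 5 µM. Lycorine is an alkaloid of the Amaryllidaceae, given at 6 µM. The 4 groups, with 3 libraries each, were untreated K562, K562 with lycorine (K562+L), K562/IM without lycorine, and libraries labelled as K562/IM with lycorine (K562/IM+L). The time of exposure before sequencing, and whether imatinib was present while lycorine was, are not given in the sources used here. The comparisons asked how lycorine changed each line, how the resistant line differed from its parent, and whether lycorine acted alike in both.

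Cells make saturated fatty acids from citrate that leaves the mitochondria. ATP citrate lyase, encoded by ACLY, splits citrate into cytosolic acetyl-CoA, and the synthetase of ACSS2 makes the same acetyl-CoA from acetate. Acetyl-CoA carboxylase 1 (ACACA) turns it into malonyl-CoA, and fatty acid synthase (FASN) builds palmitate from malonyl-CoA with NADPH, part of which comes from the malic enzyme of ME1. ELOVL6 extends palmitate to stearate and ELOVL5 extends polyunsaturated chains. SCD puts the first double bond into saturated chains, and FADS1 and FADS2 are the delta-5 and delta-6 desaturases of polyunsaturated fatty acid synthesis. SREBP-1, encoded by SREBF1, is the transcription factor that drives most of these genes, and INSIG1, itself a target of SREBP, holds the SREBP precursors in the endoplasmic reticulum.

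The total count per library ran from 75093844 to 107344598. Values below are CPM, counts brought to a common library size with TMM factors over the 12 libraries, and "called" means an adjusted p under 0.05 in edgeR's quasi-likelihood test. Nothing in the labels says that the 3 libraries of a group came from separate cultures, so that the p-values measure the spread between these libraries, which may be technical. ABCB1, the gene of the drug efflux pump P-gp, stood at 1.76 ± 0.0930 (SD, n = 3) in K562 and 23.6 ± 2.07 in K562/IM. In K562+L it was at 4.28 ± 0.759, higher than in K562 by 1.28 on the log2 scale (edgeR adjusted p = 0.00213). It was at 0.705, 0.488 and 1.06 under the label K562/IM+L, lower than in any K562 library. The sample names call that group G2 and the study's own figures call it G6, so that it is named by its label throughout. Line and treatment both differ between these libraries and K562, and the level of ABCB1 alone does not settle the label. The 6 erythroid markers examined, among them GATA1, TAL1, KLF1, LMO2 and TFRC, were all at 1 CPM or more in each group. Their summed level was 1474 to 1528 CPM in K562, 1009 to 1106 in K562+L, 804 to 846 in K562/IM and 2668 to 2936 in the labelled libraries, where all 6 were called higher than in the resistant line. Of 7 markers of other cell types, EPCAM was at 42.9 to 132 CPM, COL1A1 had a mean over 1 CPM in K562/IM alone, MS4A1 was at 0 in all libraries, and ALB was at 0 in all but the labelled libraries (at most 0.112). Transcripts of CDKN2A, a gene deleted in K562, did not exceed 0.0629 CPM in any group.

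Promoter windows of 250 bases before to 50 after the RefSeq start (GRCh38.p14) were matched for 9 of the 10 genes, 14 windows in all. Those of the elongase and the desaturases with the steepest falls in K562+L are shown, since these genes fell together in that comparison. Capitals mark the CCAAT box (letters CCAAT, searched on both strands). For FADS2 the second of its windows is shown. Its only match begins at base 6 counted from the start, and the first window held no match of any motif searched.
SCD (chr10:100346983-100347282, plus strand): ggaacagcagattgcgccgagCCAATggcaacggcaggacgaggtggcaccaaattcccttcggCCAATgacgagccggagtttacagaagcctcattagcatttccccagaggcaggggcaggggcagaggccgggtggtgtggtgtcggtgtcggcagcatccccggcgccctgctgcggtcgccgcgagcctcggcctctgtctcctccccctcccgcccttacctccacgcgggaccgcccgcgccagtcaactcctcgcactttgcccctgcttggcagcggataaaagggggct
ELOVL6 (chr4:110198566-110198865, minus strand): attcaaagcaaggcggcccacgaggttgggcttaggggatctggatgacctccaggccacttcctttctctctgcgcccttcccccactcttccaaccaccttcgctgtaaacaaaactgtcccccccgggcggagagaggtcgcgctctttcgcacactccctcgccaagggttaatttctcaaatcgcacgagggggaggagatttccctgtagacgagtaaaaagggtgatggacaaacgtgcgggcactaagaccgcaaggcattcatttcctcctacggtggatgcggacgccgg
FADS1 (chr11:61816954-61817253, minus strand): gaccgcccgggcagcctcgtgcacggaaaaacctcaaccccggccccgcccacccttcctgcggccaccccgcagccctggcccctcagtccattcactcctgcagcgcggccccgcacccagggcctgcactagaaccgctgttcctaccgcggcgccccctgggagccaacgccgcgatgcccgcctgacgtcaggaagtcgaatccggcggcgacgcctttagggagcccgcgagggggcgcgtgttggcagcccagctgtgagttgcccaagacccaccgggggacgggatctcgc
FADS2 (chr11:61816154-61816453, plus strand): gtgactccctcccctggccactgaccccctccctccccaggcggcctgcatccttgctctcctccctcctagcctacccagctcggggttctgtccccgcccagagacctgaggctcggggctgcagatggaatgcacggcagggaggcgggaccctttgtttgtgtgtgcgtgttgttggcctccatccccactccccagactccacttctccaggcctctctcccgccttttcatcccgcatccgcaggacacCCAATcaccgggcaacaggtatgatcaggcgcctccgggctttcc
The windows of FADS1 and FADS2 lie next to each other on chromosome 11 and point in opposite directions. A CCAAT box was found in 8 of the 14 windows, from 6 of the 9 genes, against 34.6% of the 35116 windows of all genes. Windows of the same gene can overlap, and those of ACLY hold the same matches, which are counted in both. The share over all genes is per window, so that it has no counterpart for the count of genes. The E-box CACGTG was found in 1 window, that of ELOVL5, against 7.26% of all windows. The SREBP site TCACNCCAC was in none of the 14 and in 1.13% of all windows. Matches of different motifs did not overlap in these windows, and a match is a description of the letters only.

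Levels were divided by exon length so that genes could be compared roughly. The length takes in all annotated exons of a gene, and exons that these cells do not use would lower its value. Per kilobase of exon SCD stood highest in K562 at 184 ± 16.7 CPM per kb (SD, n = 3), followed by FASN at 138 ± 8.67. ACLY (115), FADS1 (107) and ELOVL5 (105) formed a middle group in which neighbours overlapped between libraries. ME1 (28.8), ACSS2 (with a range of 23.9 to 26.8), ACACA (24.0) and ELOVL6 (15.1) were lower, with overlap only between ACSS2 and ACACA, and FADS2 (7.84) was lowest. In K562+L the order changed at the top, where FASN, SCD, ELOVL5 and ACLY, at 97.4 to 104 CPM per kb, overlapped from each to the next, and FADS1 stood apart below them at 35.9 ± 2.33. In K562/IM SCD led again at 116 ± 5.30 and FADS1 was at 40.4 ± 1.55. In the labelled libraries FADS1, at 60.8 ± 5.98, overlapped ELOVL5 at 64.4 ± 3.61. FADS2 was the lowest and ELOVL6 the next lowest of the 10 in every group, although ELOVL6 and ACACA overlapped in the labelled libraries. The summed CPM of the 10 genes was 4458 ± 229 (SD, n = 3) in K562, 2936 ± 170 in K562+L, 3000 ± 141 in K562/IM and 2808 ± 277 in the labelled libraries.

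FADS1 lies on the minus strand of chromosome 11, from 61799625 to 61829318 (GRCh38, GENCODE 29). It held 914, 825 and 797 CPM in the K562 libraries, 287, 264 and 301 in K562+L, 316, 309 and 333 in K562/IM, and 453, 453 and 535 in the labelled libraries. Every K562 library was above all others, and the labelled libraries lay between K562 and both other groups without overlap. FADS2, on the plus strand from 61792980 to 61867354, held 34.8, 38.9 and 43.3 in K562, 22.5, 23.7 and 24.3 in K562+L, 32.0, 25.8 and 30.9 in K562/IM, and 37.7, 31.5 and 35.4 in the labelled libraries. K562+L was below every other library, and the labelled libraries overlapped both K562 and K562/IM. FADS1 and FADS2 share 142 exon bases on opposite strands, 1.8% of FADS1 and 2.85% of FADS2. Whether the counting used strand is not given in the sources used here, so that reads there cannot be assigned. Per kilobase FADS1 stood far above FADS2, at 107 against 7.84 CPM per kb in K562. If strand was not used, reads of FADS1 could thus make up more of the FADS2 counts than 2.85%. A further 49 exon bases of FADS2 are shared with FEN1 on the same strand. The part of these bases in the changes of FADS2, in every comparison, was not tested. SCD, on chromosome 10 from 100347124 to 100364834, held 1084, 958 and 911 in K562, 550.1, 512 and 589 in K562+L, 604, 612 and 657 in K562/IM, and 531, 507 and 655 in the labelled libraries. All 9 libraries outside the K562 group were below the lowest K562 library, and K562/IM overlapped the labelled libraries.

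**Figure D1:**
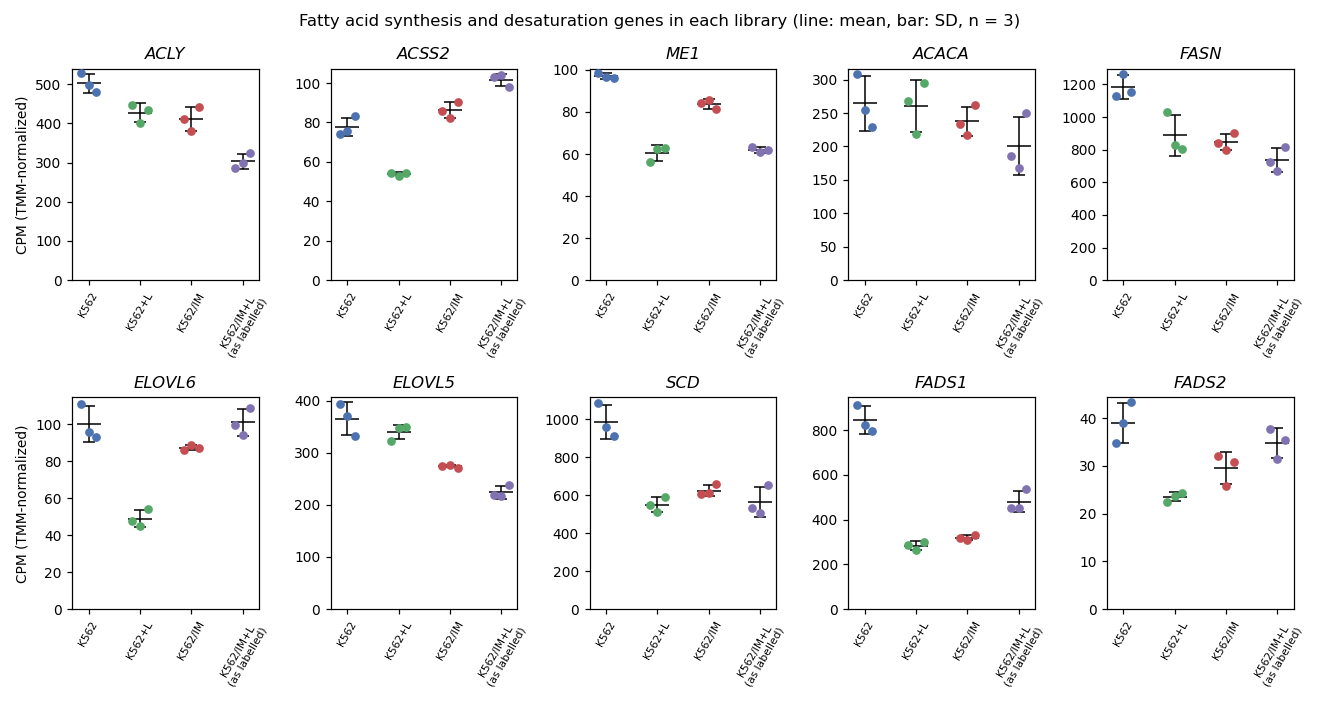
CPM after TMM scaling (vertical axis, from 0, 1 panel per gene) in each of the 12 libraries, grouped along the horizontal axis, where points are libraries, the horizontal line is the group mean and the bar is the SD (n = 3). FADS1 falls from 797 to 914 CPM in K562 to 264 to 301 in K562+L, while the ACACA groups overlap throughout.

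ELOVL6, on chromosome 4 from 110045846 to 110199199, held 111, 95.9 and 93.2 CPM in K562, 47.6, 45.0 and 54.2 in K562+L, 86.0, 88.5 and 87.3 in K562/IM, and 99.7, 94.2 and 109 in the labelled libraries. The K562+L libraries were below all others, and K562 and the labelled libraries overlapped. ELOVL5, on chromosome 6 from 53267398 to 53349179, held 394, 370.1 and 332 in K562, 323, 347 and 349 in K562+L, 276, 277 and 271 in K562/IM, and 218, 217 and 239 in the labelled libraries. K562 and K562+L overlapped, K562/IM lay below both, and the labelled libraries were lowest.

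FASN and ACACA are both on chromosome 17, FASN from 82078333 to 82098332 and ACACA from 37084988 to 37406818. FASN held 1128, 1267 and 1154 CPM in K562, 1034, 828 and 801 in K562+L, 842, 799 and 899.6 in K562/IM, and 722, 669 and 815 in the labelled libraries. All K562 libraries were above the rest, and K562+L replicate 1 was the nearest to them. ACACA held 309, 254 and 229.8 in K562, 268, 219 and 295 in K562+L, 234, 218 and 262 in K562/IM, and 186, 168 and 250.3 in the labelled libraries. Its 4 groups all overlapped, with coefficients of variation of 9.32% to 21.5% within groups.

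ACLY, on chromosome 17 from 41866908 to 41930542, held 527, 497 and 480.1 CPM in K562, 446, 399.6 and 433 in K562+L, 411, 379 and 442 in K562/IM, and 286, 299 and 324 in the labelled libraries. K562 was highest and the labelled libraries lowest, with K562+L and K562/IM overlapping between them. ACSS2, on chromosome 20 from 34872146 to 34927962, held 74.2, 75.8 and 83.1 in K562, 54.5, 53.1 and 54.5 in K562+L, 86.0, 82.4 and 90.3 in K562/IM, and 103, 104 and 98.1 in the labelled libraries. K562+L was below and the labelled libraries were above all others, and K562 and K562/IM overlapped. ME1, on chromosome 6 from 83210389 to 83431071, held 98.5, 96.7 and 96.1 in K562, 56.2, 62.4 and 62.8 in K562+L, 84.0, 85.9 and 81.2 in K562/IM, and 63.6, 60.8 and 61.8 in the labelled libraries. Its K562 and K562/IM libraries did not overlap each other or the lycorine groups, and the lycorine groups overlapped.

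In K562+L against K562, transcripts of 8 of the 10 genes fell and none rose. Over the 12927 genes tested, 19% were called lower and 18.2% higher. The steepest fall was that of FADS1, from 845 ± 61.2 (SD, n = 3) to 284 ± 18.4 CPM, or -1.58 on the log2 scale (standard error 0.088, edgeR adjusted p = 5.92e-05). In bulk libraries, fewer cells with a transcript and less of it per cell cannot be told apart. ELOVL6 reached 0.489 of its K562 level, or -1.03 on the log2 scale (standard error 0.11, adjusted p = 0.000666). SCD followed with -0.84 (standard error 0.093, adjusted p = 0.000738) and FADS2 with -0.73 (standard error 0.10, adjusted p = 0.00195). Among the genes of acetyl-CoA and NADPH supply, ME1 fell by 0.68 on the log2 scale (adjusted p = 0.00113) and ACSS2 by 0.53 (adjusted p = 0.00300). FASN changed by -0.42 (adjusted p = 0.0209) and ACLY by -0.24 (adjusted p = 0.0477). ACACA (-0.02, standard error 0.14, adjusted p = 0.925) and ELOVL5 (-0.11, standard error 0.088, adjusted p = 0.370) were not called. The median log2 fold change of the 10 genes was -0.61, against -0.00012 over all genes tested. The summed erythroid markers were lower in K562+L as well, 2 of the 6 being called, and their part in these falls was not tested.

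The calls of FASN and ACLY in this comparison lay near the threshold and were lost in several fits that left out 1 library. FASN was not called without K562 replicate 2 (adjusted p = 0.0841), K562+L replicate 2 (0.0712) or K562+L replicate 3 (0.0744), with log2 fold changes of -0.37 to -0.35 in these fits. ACLY was not called without any 1 of K562 replicates 1 and 2 or the K562+L replicates (-0.27 to -0.19, adjusted p from 0.0722 to 0.155), nor with DESeq2 (adjusted p = 0.0507). The other 6 calls held in each of these fits.

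**Figure D2:**
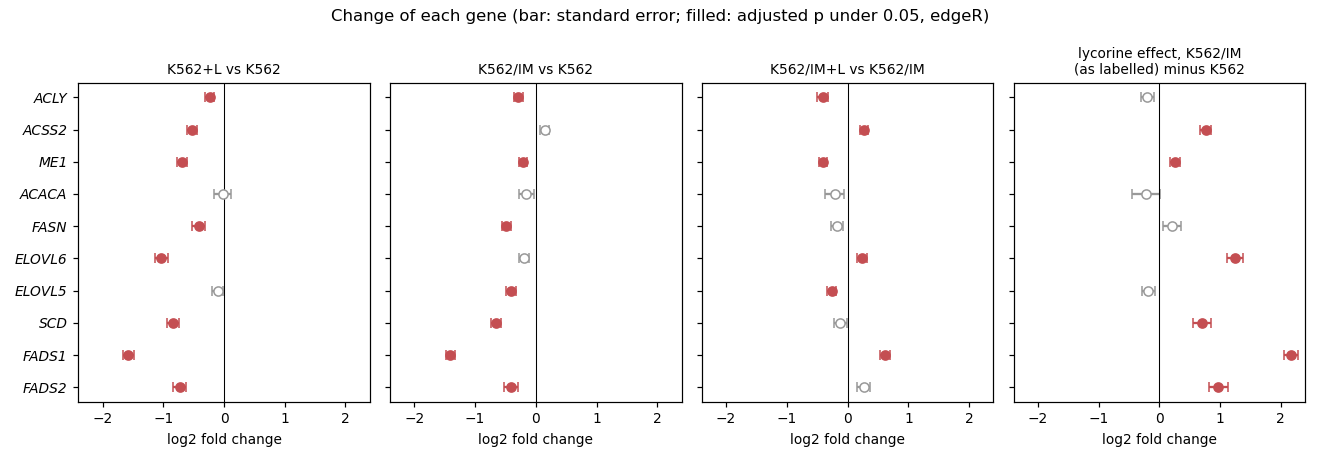
Log2 fold change of each gene (horizontal axis) in 4 comparisons, 1 per panel, with the standard error as a bar and filled points for an adjusted p under 0.05. In K562+L against K562 the points run from -1.58 (FADS1) to -0.02 (ACACA), and the last panel, the lycorine effect in K562/IM as labelled minus that in K562, runs up to 2.17 for FADS1.

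The resistant line carried less of most of these transcripts than its parent. In K562/IM against K562, which shares its control libraries with the comparison above, 7 of the 10 genes were lower and none higher. Of the 13406 genes tested, 27.1% were called lower and 30.1% higher. FADS1 again stood out, at 319 ± 12.2 CPM (SD, n = 3) 0.377 of its K562 level, or -1.41 on the log2 scale (standard error 0.075, edgeR adjusted p = 6e-06). SCD fell by 0.66 on the log2 scale (adjusted p = 0.000356), FASN by 0.48 (adjusted p = 0.00101) and ELOVL5 by 0.41 (adjusted p = 0.00295). FADS2 changed by -0.40 (adjusted p = 0.0185), ACLY by -0.29 (adjusted p = 0.0143) and ME1 by -0.22 (adjusted p = 0.0222). ELOVL6 did not overlap between the groups but was not called (-0.20, adjusted p = 0.0783), and neither were ACACA (-0.15, adjusted p = 0.309) and ACSS2 (0.15, adjusted p = 0.128). The median of the 10 genes was -0.34, against 0.042 over all genes tested. Of the 6 erythroid markers 4 were lower in K562/IM too, and their part here was not tested.

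The 7 calls were reduced to 4 without K562/IM replicate 2, where ACLY (adjusted p = 0.0593), FADS2 (0.0665) and ME1 (0.0511) were not called. ME1 was also not called without K562 replicate 2 (adjusted p = 0.0754), K562/IM replicate 1 (0.0884) or K562/IM replicate 3 (0.0953), ACLY without K562/IM replicate 1 (0.0550) and FADS2 without K562 replicate 2 (0.0529). ELOVL6 passed without K562 replicate 1 (adjusted p = 0.0491) or replicate 3 (0.0252), with DESeq2 (0.0404) and with RLE scaling (0.0474). FADS1, SCD, FASN and ELOVL5 were called in all 6 of these fits.

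Between K562/IM and the libraries labelled K562/IM+L the genes moved both ways, with 3 called higher and 3 lower in the latter. Of the 13727 genes tested, 33.2% were called higher and 33.6% lower, so that the counts of the 10 genes were near the shares of all genes. FADS1 rose to 480.4 ± 47.3 CPM (SD, n = 3), or 0.62 on the log2 scale (standard error 0.089, edgeR adjusted p = 0.000591). ACSS2 rose by 0.26 (standard error 0.067, adjusted p = 0.00961) and ELOVL6 by 0.24 (standard error 0.076, adjusted p = 0.0257). ACLY and ME1 both fell by 0.41 on the log2 scale (adjusted p = 0.00375 and 0.000782), and ELOVL5 fell by 0.26 (adjusted p = 0.0109). FADS2 had 0.26 (adjusted p = 0.0683), ACACA -0.21 (adjusted p = 0.263), FASN -0.18 (adjusted p = 0.133) and SCD -0.12 (adjusted p = 0.365). The median of the 10 genes was -0.15, against -0.0069 over all genes. The summed erythroid markers, given above, were higher too, and their part in these changes was not tested.

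Replicate 3 of the labelled libraries decided 3 of the genes that were not called. Without it ACACA (-0.40, adjusted p = 0.00476), FASN (-0.26, adjusted p = 0.00714) and SCD (-0.24, adjusted p = 0.00374) were called lower, so that 6 genes were lower and 3 higher. FADS2 was called higher without labelled replicate 2 (0.33, adjusted p = 0.0382). ELOVL6 was not called without any 1 of the K562/IM replicates or labelled replicate 1 (adjusted p from 0.0622 to 0.0958). FADS1, ACSS2, ACLY, ME1 and ELOVL5 were called in all 6 fits that left out 1 library.

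Against untreated K562, the labelled libraries differed in line and treatment at once. In this comparison 6 of the 10 genes were lower and 1, ACSS2, was higher, while 27.8% of the 13307 genes tested were called lower and 28.2% higher. ACSS2 rose by 0.37 (standard error 0.085, edgeR adjusted p = 0.00825). FADS1 fell by 0.84 on the log2 scale, SCD by 0.82, ACLY by 0.75, ELOVL5 by 0.72, FASN by 0.71 and ME1 by 0.67, with adjusted p from 0.000267 to 0.00102. ELOVL6 (-0.0080, adjusted p = 0.953), FADS2 (-0.18, adjusted p = 0.214) and ACACA (-0.41, adjusted p = 0.0756) were not called. Without labelled replicate 3, ACACA was called lower as well (-0.59, adjusted p = 0.0141), as it was with DESeq2 (-0.40, adjusted p = 0.0471). The median of the 10 genes was -0.69, against 0.020 over all genes tested.

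For 6 of the 10 genes lycorine had an effect that differed between the lines as labelled, and in each the difference was positive. The difference is the effect in K562/IM minus that in K562, and of the 13995 genes tested 29.9% were called higher and 31.7% lower in it. FADS1 had the largest difference of the 10, 2.17 on the log2 scale (standard error 0.12, adjusted p = 4.73e-08 for edgeR's interaction term over the 12 libraries). ELOVL6 had 1.25 (standard error 0.13, adjusted p = 6.83e-06) and FADS2 0.97 (standard error 0.15, adjusted p = 0.000173). ACSS2 had 0.77 (adjusted p = 2.25e-05), SCD 0.70 (adjusted p = 0.00121) and ME1 0.26 (adjusted p = 0.0239). For FADS1, ELOVL6 and ACSS2 this was a fall in K562+L and a rise in the labelled libraries. ME1 fell in both lines, and less in the labelled libraries. FASN (0.22, adjusted p = 0.230), ACLY (-0.20, adjusted p = 0.131), ELOVL5 (-0.18, adjusted p = 0.152) and ACACA (-0.22, adjusted p = 0.435) were not called. The call of ME1 was lost without K562+L replicate 1, K562/IM replicate 3 or labelled replicates 1 or 2 (adjusted p from 0.0535 to 0.0649), and FASN passed without K562+L replicate 1 (0.34, adjusted p = 0.0390). All directions here rest on the label of the K562/IM+L libraries.

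SREBF1 and INSIG1, which stand above these genes, were at their highest in K562 and the labelled libraries. SREBF1 held 185, 231 and 226 CPM in K562, 169, 147 and 129.9 in K562+L, 137, 131 and 145 in K562/IM, and 263, 259 and 197 in the labelled libraries. K562+L and K562/IM lay below every library of both other groups. The log2 fold change of SREBF1 was -0.52 in K562+L (edgeR adjusted p = 0.0156) and -0.64 in K562/IM (adjusted p = 0.00114) against K562. It rose by 0.82 in the labelled libraries against K562/IM (adjusted p = 0.000557). In K562+L its call was lost without K562 replicate 2 (adjusted p = 0.0660) or K562+L replicate 3 (0.0552). INSIG1 held 288, 264 and 265 CPM in K562, 82.1, 88.7 and 86.7 in K562+L, 181, 188 and 189 in K562/IM, and 269, 268 and 272 in the labelled libraries. K562+L was lowest, K562/IM intermediate, and the labelled libraries were within the K562 range. Its log2 fold change was -1.67 in K562+L (standard error 0.082, adjusted p = 4.81e-05) and -0.55 in K562/IM (adjusted p = 0.000353) against K562, and 0.56 in the labelled libraries against K562/IM (adjusted p = 0.000134). Against K562 neither gene was called in the labelled libraries, with 0.15 for SREBF1 (adjusted p = 0.430) and -0.036 for INSIG1 (adjusted p = 0.720).

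**Figure D3:**
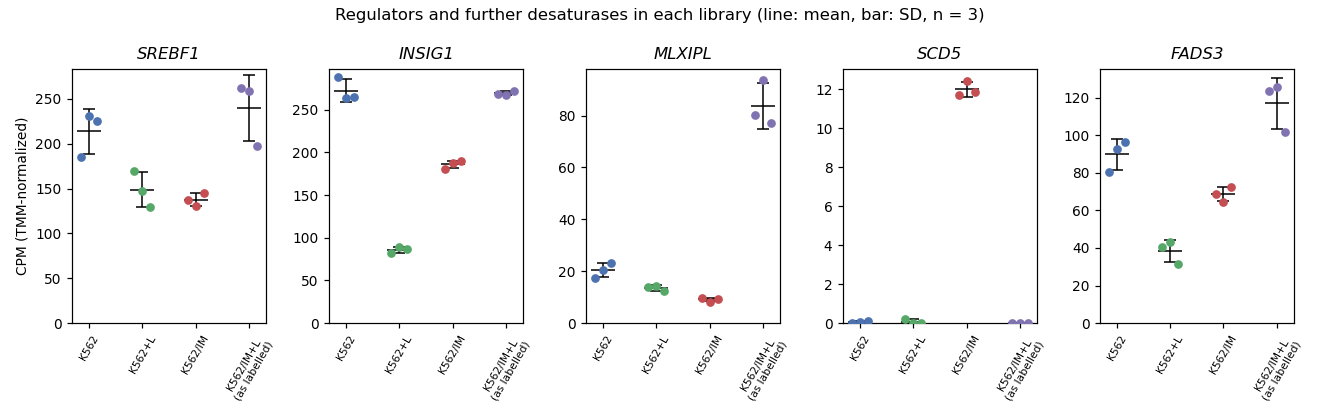
CPM after TMM scaling (vertical axis, from 0) of 2 regulators (SREBF1, INSIG1), the carbohydrate response factor gene MLXIPL and 2 further desaturase genes (SCD5, FADS3) in each library, where points are libraries, the horizontal line is the mean and the bar the SD (n = 3). INSIG1 is lowest in K562+L (82.1 to 88.7 CPM), MLXIPL highest in the labelled libraries (77.0 to 93.9), and SCD5 is at 11.7 to 12.4 in K562/IM and near 0 elsewhere.

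Other desaturases and their electron donors were read from a list of 8 genes. SCD5, a second stearoyl-CoA desaturase, had 975, 1194 and 1269 counts in K562/IM, 0, 5 and 8 in K562, 20, 0 and 0 in K562+L, and 0 in each of the labelled libraries. From K562/IM to the labelled libraries it was at least 322-fold lower if a count of 0 allows up to 3 counts per library (counting error only). That limit takes each count as a separate event. Small values in the count table favoured multiples of 4, so that the limit may be higher and the fold smaller. FADS3, whose product is a sphingoid base desaturase, stood at 89.9 ± 8.37 CPM (SD, n = 3) in K562, 38.4 ± 5.92 in K562+L, 68.7 ± 3.99 in K562/IM and 117 ± 13.5 in the labelled libraries. FADS3 fell by 1.23 on the log2 scale in K562+L (edgeR adjusted p = 0.000719), and it rose by 0.79 from K562/IM to the labelled libraries (adjusted p = 0.000278). CYB5R1, of the cytochrome b5 reductase family, rose in K562+L (0.55) and in the labelled libraries against K562/IM (1.16), and was lower in K562/IM than in K562 (-0.44). Of the genes tested, 1 was higher and 2 lower of 5 in K562+L, and 2 higher and 3 lower of 6 both in K562/IM against K562 and in the labelled libraries against K562/IM. The shares over all genes are given with each comparison above.

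Several lists around the pathway had more genes lower than higher in K562+L, where 19% of all genes tested were called lower and 18.2% higher. The supply of acetyl-CoA, malonyl-CoA and NADPH had 5 of 9 tested genes lower and none higher (median -0.33), with IDH1, the cytosolic NADPH-forming isocitrate dehydrogenase, at -1.76 and ACSS1, the mitochondrial acetyl-CoA synthetase, at -1.35. SLC25A1, the mitochondrial citrate carrier, belongs to this list and fell from 481 ± 58.7 to 227 ± 22.3 CPM (SD, n = 3, log2 fold change -1.08, adjusted p = 0.000698 from edgeR). In K562/IM it stood at 339 ± 5.47 and in the labelled libraries, where it was highest, at 729 ± 107. Mitochondrial fatty acid synthesis had 4 of 6 genes lower and none higher (median -0.52, MECR -0.75 and HSD17B8 -0.72, the latter not called without K562 replicate 3 or K562+L replicates 2 or 3). Fatty acid oxidation had 9 lower and 1 higher of 17 (median -0.32, ACADS -0.75, PPARD -0.66). Sterol enzymes and other genes under SREBP control had 7 lower and none higher of 13 (median -0.51, MVD -0.88). The control genes of lipogenesis had 6 lower and 1 higher of 16 (median -0.028), the one higher being MBTPS2, a protease that releases SREBP, at 0.79. Other elongases and enzymes of the elongation cycle had 1 lower (TECR -0.82) and 1 higher (HACD2 0.55) of 9 (median -0.047). Fatty acid activation had 1 lower (ACSL4 -0.94) and 1 higher (SLC27A2 0.51) of 10 (median 0.070). Glycerolipid synthesis and storage had genes on both sides, with 4 higher and 3 lower of 13 (median 0.025). Of the genes of triglyceride synthesis, GPAM (0.74) and DGAT2 (0.73) were among the higher. DGAT1 was among the lower, at 39.6 CPM in K562 and 28.6 in K562+L (-0.47, edgeR adjusted p = 0.0196).

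Several of these counts moved when 1 library was left out. In K562+L the oxidation list went from 10 called genes to 6 without K562 replicate 2 or K562+L replicate 1. The glycerolipid list went from 7 to 3 without K562 replicate 2 and to 4 without K562+L replicate 3. The control list went from 7 to 4 without K562 replicate 2 or K562+L replicate 3, and mitochondrial synthesis from 4 to 2 without K562+L replicates 1 or 3.

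**Figure D4:**
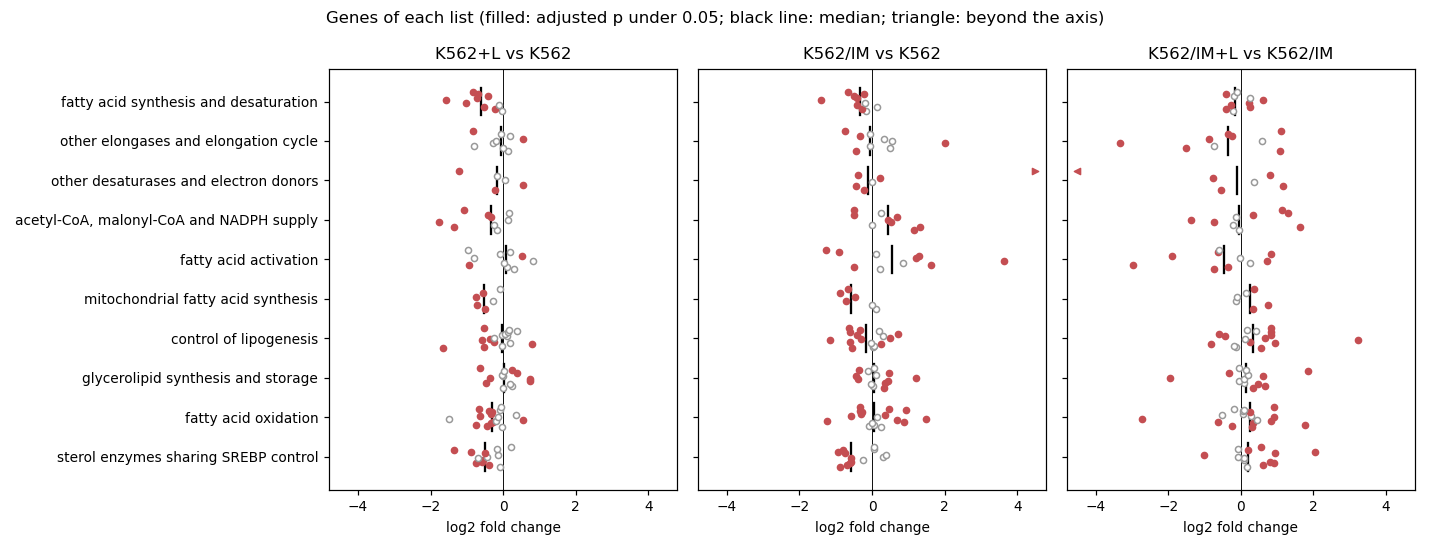
Log2 fold change (horizontal axis) of every tested gene of 10 lists (rows) in 3 comparisons, 1 per panel, with filled points for an adjusted p under 0.05, a black line at each list's median and triangles for SCD5, which lies beyond the axis. The top row holds the 10 genes of fatty acid synthesis and desaturation, with medians of -0.61, -0.34 and -0.15 from left to right, and K562/IM+L is shown as labelled.

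In K562/IM against K562 the surrounding lists were split, and the counts are to be read beside the 30.1% of all genes called higher and the 27.1% called lower. The shares of the activation and oxidation lists were near these. Sterol genes had 8 lower and none higher of 13 (median -0.58, MVD -0.95, CYP51A1 -0.89), and mitochondrial fatty acid synthesis had 4 lower and none higher of 6 (median -0.57, NDUFAB1 -0.88, MCAT -0.71). The control list had 8 lower and 3 higher of 16 (median -0.17), with MLXIPL, the carbohydrate response factor ChREBP, at -1.17 and PRKAB2, a subunit of AMP-activated kinase, at 0.73. The supply list had more genes higher than lower, with 5 higher and 2 lower of 9 (median 0.45), among them ACSS1 (1.31) and ACACB, the mitochondrial acetyl-CoA carboxylase (1.17). Fatty acid activation had 4 higher and 3 lower of 10 (median 0.54), with ACSL6 at 3.65 from 0.725 CPM in K562 and ACSL4, which activates arachidonate, at 1.62. Oxidation had 6 higher and 6 lower of 17 (median 0.041, CPT1A -1.23, PPARA 0.94) and glycerolipid genes 5 higher and 3 lower of 13 (median 0.045, LPCAT1 1.21, LPIN2 0.46). The elongation list had 3 lower and 1 higher of 9 (median -0.062, TECR -0.74). The higher one was ELOVL7, whose K562/IM libraries held 11.7, 47.2 and 44.6 CPM against a mean of 8.63 in K562 (edgeR adjusted p = 0.00830). The desaturase list (median -0.11) had 5 called genes and 3 without K562 replicate 2 or K562/IM replicates 1 or 3, and the glycerolipid list 8 and 5 without K562/IM replicate 3.

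From K562/IM to the labelled libraries, MLXIPL rose from 9.09 ± 0.738 to 83.7 ± 8.94 CPM (SD, n = 3, log2 fold change 3.23, adjusted p = 6.22e-07 from edgeR). The list counts here are to be read beside the 33.2% of all genes called higher and the 33.6% called lower. The shares called higher in the desaturase, glycerolipid, oxidation and supply lists were near the former. The control list had 8 higher and 3 lower of 16 (median 0.33), and MID1IP1, which promotes polymerization of acetyl-CoA carboxylase, was also higher (0.94). Sterol genes had 7 higher and 1 lower of 13 (median 0.20), with MVD at 2.05. The supply list had 4 higher and 2 lower of 9 (median -0.038, ACSS1 1.64, ME2 -1.38), oxidation 7 higher and 3 lower of 17 (median 0.27, ACADS 1.78, SLC25A20 0.92), and mitochondrial synthesis 3 higher and none lower of 6 (median 0.24, HSD17B8 0.75, OXSM 0.37, the latter not called without K562/IM replicates 1 or 2 or labelled replicate 2). Activation had 5 lower and 2 higher of 10 (median -0.47), with ACSL4 at -2.98 and SLC27A2 at -1.90. The elongation list had 5 lower and 2 higher of 9 (median -0.36, ELOVL7 -3.33, ELOVL2 -1.52), the glycerolipid list 5 higher and 2 lower of 13 (median 0.14, LPCAT1 -1.96, LPIN3 1.85). The median of the desaturase list was -0.092, also with SCD5 set at the 322-fold value.

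Against K562, the labelled libraries had 5 of 9 supply genes higher and 2 lower (median 0.49, ACSS1 2.91, PGLS 1.51), 4 of 16 control genes higher and 2 lower (median 0.024, MLXIPL 2.02, NR1H3 1.12), and 2 of 13 sterol genes higher and 3 lower (median -0.061, MVD 1.06, CYP51A1 -0.76). Mitochondrial synthesis had 2 higher and 4 lower of 6 (median -0.47, MCAT -0.88, NDUFAB1 -0.79). Activation had 3 higher and 5 lower of 10 (median -0.60, ACSL6 4.31, SLC27A5 -1.91), and elongation 2 higher and 5 lower of 9 (median -0.60, ELOVL7 -1.38, HACD1 1.09, the latter not called without labelled replicate 2). Glycerolipid genes had 5 higher and 2 lower of 13 (median 0.25, LPIN3 1.71, LPCAT1 -0.80), a count of 7 that was 4 without labelled replicate 1 or 2. Oxidation had 6 higher and 4 lower of 17 (median 0.21, ACADS 1.77, CPT1B 1.09), and the desaturase list 2 higher and 2 lower of 6 (median 0.34, CYB5B -0.81, CYB5R1 0.68). These counts are to be read beside the 28.2% of all genes called higher and the 27.8% called lower. The shares of the oxidation and desaturase lists were near these.

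Within groups, several of the 10 genes moved between libraries together with genes of long transcripts. The 3428 genes with the longest exons (5548 bases or more) had a median deviation from their group mean of 0.14 (log2) in K562 replicate 1, -0.12 in K562 replicate 3 and 0.16 in labelled replicate 3. ACACA, with 11020 exon bases, deviated by 0.24, -0.19 and 0.33 in those libraries. FADS1, with 7907, deviated by 0.12, -0.083 and 0.16. FASN, with 8565 exon bases, did not follow them throughout, with -0.067 in K562 replicate 1, -0.034 in K562 replicate 3 and 0.15 in labelled replicate 3, and -0.14 in K562+L replicate 3, where the long genes had 0.075. Genes with shorter exons moved with them too, ELOVL5 (3485 bases) by 0.11, -0.14 and 0.091 and ACLY (4378 bases) by 0.073, -0.062 and 0.098. FADS2 and ACSS2 went the other way in K562 replicate 1 (-0.15 and -0.064) and replicate 3 (0.15 and 0.097). ME1, with 3371 exon bases, deviated by 0.021, -0.015 and -0.0057. Exon length thus did not separate the genes that moved with the long genes from the others. The part of these shared deviations in the changes above was not tested. Fits with the long-gene deviation as a covariate were chosen after the data were seen. The covariate is measured from each group's own mean, so it can take up spread within groups but hardly any difference between groups. Such fits therefore cannot tell what part transcript length had in the changes. In K562/IM against K562 it gave 8 genes lower, ELOVL6 among them (-0.19, adjusted p = 0.00669), and 1 higher, ACSS2 (0.15, adjusted p = 0.0379). With it ACACA, FASN and SCD were called lower in the labelled libraries against K562/IM (adjusted p from 0.00810 to 0.0163), 9 genes in all, and ACACA was called lower against K562 (-0.42, adjusted p = 0.000106). In the difference of lycorine effects ACACA, ACLY and ELOVL5 then passed as lower (-0.24, -0.20 and -0.19). The covariate raised the calls over all genes as well, to 10351 of 13727 in the labelled libraries against K562/IM.

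**Figure D5:**
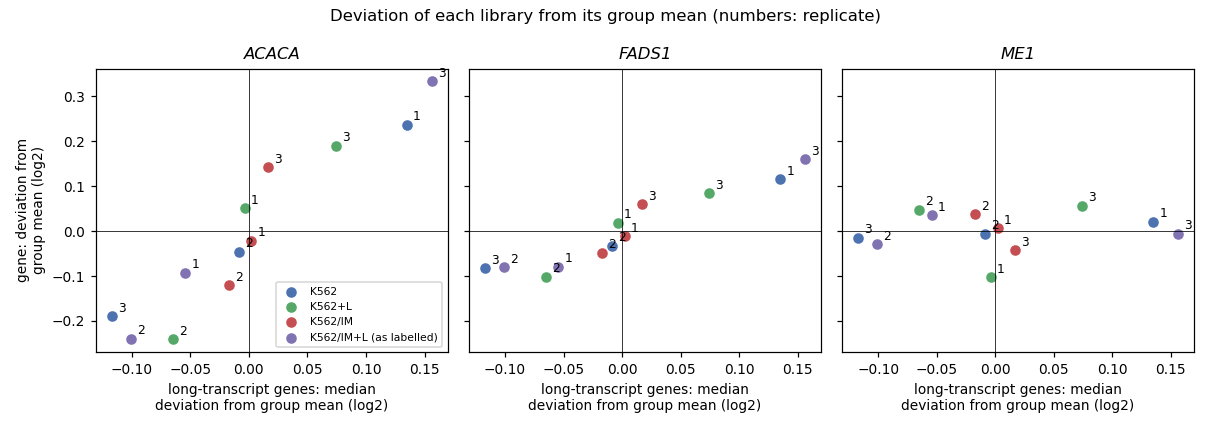
Deviation of each library from its group mean (log2) for ACACA, FADS1 and ME1 (vertical axis) against the median deviation of the genes with the longest transcripts (horizontal axis, log2), where points are libraries coloured by group and numbered by replicate. ACACA runs from -0.24 to 0.33 and rises along the horizontal axis, while ME1 stays between -0.10 and 0.056.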

How the data were processed

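Messenger RNA was measured in 12 libraries, in groups set by line and treatment as labelled. The authors deposited 1 table of whole-number counts per gene symbol, without normalization. Per the labels, the submitters' processing notes name FastQC, STAR, StringTie, DESeq2 and hg38, without roles or versions, and the counter, annotation and strand setting are not given in the sources used here. Small values favoured multiples of 4 (among 23289 values up to 25, 67.9% were such a multiple or the next number, where 52% of the whole numbers are), so that counting error may exceed what the totals of 75093844 to 107344598 give.

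In each comparison its 6 libraries were filtered (filterByExpr, minimum count 10), scaled by TMM and fitted with edgeR 4.0.16 (quasi-likelihood, R 4.3.3, limma 3.58.1), with Benjamini-Hochberg adjustment over all genes tested and calls at an adjusted p under 0.05. The difference of lycorine effects was an interaction over 12 libraries. Each comparison without the labelled libraries was fitted without them. All 10 genes passed the filter in each comparison. Standard errors were taken from the F statistic. The steps were tested on simulated data. Positions and exon lengths came from GENCODE 29 (GRCh38), promoter sequences from RefSeq (GRCh38.p14). The genes, gene lists and tests were chosen with earlier results of these data known. In every comparison, beside the 10 genes, SREBF1 and INSIG1, at most 2 genes of each list were named, those with the largest absolute log2 fold change among called genes with a mean of at least 1 CPM and no overlap between groups. Some single genes that this rule or the lists hold are not reported here, and counts include them. ABCB1 was added as a check of the lines, and SLC25A1 and FADS3 are given in every group because the rule names them in the interaction or in 1 comparison. DGAT1 is given beside DGAT2 in 1 comparison, outside the rule and without the alternatives. The lists were further elongases, further desaturases and electron donors, supply of acetyl-CoA, malonyl-CoA and NADPH, fatty acid activation, mitochondrial fatty acid synthesis, control of lipogenesis, glycerolipid synthesis and storage, fatty acid oxidation, sterol genes, and 3 marker lists. Alternatives covered the test (DESeq2 1.42.0), normalization, filter, counts divided by 4, the libraries fitted, a replicate block, a covariate and each library left out. Replicate pairs of a group differed by more than sampling noise (chi-square per degree of freedom from 8.63 to 53.8), so that none was counted as a repeat. Proteins and FASN promoters were not analysed here.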

Additional observations from a re-analysis of the deposited data

Results flagged for a closer look

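Lycorine had a different effect in the lines as labelled for the following genes, each by edgeR's interaction term at an adjusted p under 0.05. Values are the log2 effect in K562/IM minus that in K562, and all rest on the label of the K562/IM+L libraries. Among the 10 genes of fatty acid synthesis and desaturation these were FADS1 (2.17), ELOVL6 (1.25), FADS2 (0.97), ACSS2 (0.77), SCD (0.70) and ME1 (0.26). The regulators SREBF1 (1.32) and INSIG1 (2.21) differed in the same direction, and so did MLXIPL (3.795), which encodes the carbohydrate response factor.

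In the surrounding lists, a positive difference was found for SLC25A1 (2.19), the citrate carrier, ACSS1 (2.97), TECR (1.92), the last enzyme of the elongation cycle, FADS3 (2.001), HSD17B8 (1.44) and CBR4 (0.83) of mitochondrial fatty acid synthesis, LPIN3 (1.81), ACADS (2.51) and CPT2 (1.03) of fatty acid oxidation, and MVD (2.91) and FDFT1 (1.63) of sterol synthesis. A negative difference was found for ELOVL7 (-3.07), ACSL4 (-2.06) and SLC27A2 (-2.43) of fatty acid activation and LPCAT1 (-1.62), a phospholipid remodelling enzyme. SCD5 had a fitted difference of -13.48, which depends on the prior count of the fit because its labelled libraries are all at 0, and which was not called without K562+L replicate 1 (adjusted p = 1), the 1 library of that group with counts of this gene. The 6 erythroid markers also differed, all with a positive sign, and their part in these values was not tested.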

How the results depend on the processing

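Of 800 values of the 10 genes under alternative settings, 737 kept their direction and side of the threshold, 31 lost the call, 22 gained it and 10 changed sign. Leaving out 1 library gave 6 to 8 called genes in K562+L against K562 (8 with all), 4 to 8 in K562/IM against K562 (7), 5 to 9 in the labelled libraries against K562/IM (6), 7 to 8 against K562 (7) and 5 to 6 in the difference of effects (6). Other settings gave 7 to 8, 6 to 9, 5 to 9, 6 to 8 and 6 to 9. The sign changes were all of values that were not called, and the cause was not tested. ACACA in K562+L went to 0.098 without K562 replicate 1 and 0.091 without K562+L replicate 2 (-0.12 to 0.098 over the fits without 1 library). In the labelled libraries against K562, ELOVL6 went to 0.0031 (DESeq2), 0.0038 (RLE), 0.14 (upper quartile), 0.019 (at least 10 counts in every library), 0.012 (counts divided by 4), 0.016 (all 12 libraries fitted), 0.072 (without K562 replicate 1) and 0.031 (without labelled replicate 2; -0.059 to 0.072 without 1 library), and INSIG1 to 0.12 (upper quartile) and 0.0039 (without K562 replicate 1; from -0.064 without 1 library). Upper-quartile scaling shifted the median of all genes by 0.15 in the labelled libraries against K562, where 61.3% of calls were then higher, and by 0.13 in the difference of effects. Same-numbered libraries correlated at -0.57 to 0.41 in their deviations (18 pairs, 4 above 0.1) and 4 of 12 libraries lay closest to their own number. No pairing by number was thus seen, but the shifts of single libraries in the long genes could hide one. With the replicate number as a block the counts of called genes were 7, 6, 7, 6 and 6, in the order above. The block took the call from ACLY in K562+L (adjusted p = 0.126), ME1 in K562/IM (0.0656) and ACSS2 in the labelled libraries against K562 (0.37, adjusted p = 0.0617), and gave one to FADS2 in the labelled libraries against K562/IM (0.0274). With it 3126 of all genes were called in K562+L against K562, where 4821 had been. Of 1642 values of the other named genes, 1629 kept their call, and 698 of 720 list counts stayed within 1.5 times. The 3 libraries of a group limit every test here.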
